A study of Rattus norvegicus with 10 samples.

Results

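The diversity (D) gene segments of the rat immunoglobulin heavy chain locus, IGHD, were followed through the productive reads of 10 Wistar rats. All lines called productive that named an IGHD gene were taken, and the first gene named was used. This gave 33 IGHD genes in 1579611 of the 1615896 productive reads, and all 33 were found in each of the 10 animals. The 36285 productive reads with no IGHD gene served as a reference.

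Of these rats, 5 were immunized with recombinant human HuD, a neuronal RNA-binding protein, and 5 with a keyhole limpet hemocyanin carrier modified with dinitrophenyl groups (DNP). Every animal received its antigen in complete Freund's adjuvant and then 3 boosts in incomplete adjuvant, so adjuvant and boosts are shared by both groups, and no unimmunized animal was analysed. RNA of the whole spleen cell suspension was copied with primers in the immunoglobulin constant domains, so each library holds heavy chain transcripts of the B cells and plasma cells of 1 spleen. Ages are not given, and the animals of both groups were littermates according to the study. The files hold heavy chain sequences alone, and the splenocyte label could therefore not be checked with markers of other genes. Fewer cells that carry a gene and less RNA per cell cannot be told apart in such libraries.

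A heavy chain is assembled in the developing B cell by joining an IGHD to an IGHJ segment and then an IGHV segment to both. The IGHD segment comes to lie in the middle of the third complementarity-determining region (CDR3), the loop that is often at the centre of the antigen contact. It can be read in more than 1 frame, and bases are trimmed and added at both of its ends, so that a short or mutated remnant is hard to assign. In the text below, a read is 1 collapsed sequence. A rearrangement is a distinct combination of IGHV gene, IGHD gene, IGHJ gene and CDR3 amino acids in 1 animal. Related sequences that differ in a CDR3 residue or in a called gene count as separate rearrangements.

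The rearrangements of an IGHD gene can be described by the strings of 4 residues that recurred most in their CDR3 core. The core is the CDR3 without its first 2 and last 3 residues. For the 12 most used genes the leading string and the next one that shares no run of 3 residues with it are shown. The composition results further on name some of these strings. They were chosen for their frequency and describe the calls, which were made from the same bases.

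IGHD1-1: YYSG, TTVV
IGHD1-2: YSSY, SYIY
IGHD1-3: YGSY, FNYG
IGHD1-4: LPGY, YPGI
IGHD1-6: YTTD, TDYY
IGHD1-7: YYGY, PLRV
IGHD1-9: YYGY, GYNY
IGHD1-10: YNNY, NYGW
IGHD1-11: YGGY, TEGI
IGHD1-12: YYDG, DGSY
IGHD4-3: NSGY, WYNS
IGHD5-1: GLGA, NWEL

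Most of these strings were nearly private to their gene. YYDG was in 23.8% ± 4.34 (SD, n = 10 animals) of the IGHD1-12 rearrangements and in 0.00507% of those of all other IGHD genes, and YTTD was in 19.8% ± 5.35 of the IGHD1-6 rearrangements and 0.00710% of the others. YYGY led in both IGHD1-9, with 24.5% ± 4.78, and IGHD1-7, with 9.65% ± 2.86. The leading strings of IGHD1-3 and of IGHD5-1 varied more between animals. YGSY was in 0.534% of the IGHD1-3 rearrangements of one animal and 21.4% of those of another, and GLGA was in 2.04% ± 1.35 of the IGHD5-1 rearrangements. Some second strings came from few animals, as the SD of PLRV in IGHD1-7 (2.24% ± 6.95) shows.

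IGHD1-12 was the only gene named with more than 1 allele, of 35 alleles for 33 genes. Allele 02 made up 59.0% ± 8.51 of its reads, allele 03 30.9% ± 10.03 and allele 01 10.1% ± 4.53. The core string YDGS was in 22.5% ± 6.47 of the allele 02 rearrangements and in 2.65% ± 1.19 of those of allele 03, while YDGY was in 26.6% ± 8.95 of the allele 03 and 1.01% ± 0.785 of the allele 02 rearrangements. Allele 03 ranged from 6.87% of the gene's reads in DNP3 to 43.0% in DNP5.

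The reads of 1 gene in 1 animal often came from few sequences. The following CDR3s, of at most 14 residues, had the most reads for their gene and are shown because several of them held a large part of the reads of their gene in 1 animal, which is given in brackets.

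IGHD1-9: ARRHYGYTDYFDY (HuD4)
IGHD1-7: ARWTRYFDY (DNP1)
IGHD1-3: ARWSRYFDY (DNP2)
IGHD4-3: ARWYNSGYYFDY (DNP3)
IGHD4-4: VRWNSGHFDY (DNP1)
IGHD2-2: ARAGYLRDWYFDF (HuD4)
IGHD2-7: VRQGYLRDWYFDF (HuD5)
IGHD2-5: TRGGYFRY (HuD5)
IGHD3-5: AWPST (DNP1)
IGHD3-8: ATEDYGLTGFAY (HuD1)

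ARRHYGYTDYFDY had 5737 IGHD1-9 reads in HuD4, which was 27.6% of the reads of the gene in that animal, mostly with IGHV5-29 and IGHJ2. TRGGYFRY also had the most reads of IGHD1-12, all of them in HuD3. ARWYNSGYYFDY, which holds the leading IGHD4-3 string, had 2541 reads in DNP3, 27.4% of its IGHD4-3 reads. AWPST, a CDR3 of 5 residues, had 1710 of the IGHD3-5 reads of DNP1, or 87.2% of them. VRWNSGHFDY accounted for 58.2% of the IGHD4-4 reads of DNP1 and ATEDYGLTGFAY for 56.4% of the IGHD3-8 reads of HuD1. Over all animals, the most abundant CDR3 of a gene held on average between 7.68% ± 4.18 of its reads for IGHD1-11 and 54.6% ± 23.0 for IGHD2-6.

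An IGHD gene was called in most productive reads of every library. The called shares of DNP1 to DNP5 were 95.9%, 98.1%, 97.1%, 98.4% and 98.2%. Those of HuD1 to HuD5 were 98.2%, 97.7%, 97.2%, 96.8% and 98.9%. The groups overlapped, with means of 97.5% ± 1.04 for DNP and 97.8% ± 0.804 for HuD (n = 5 each), and the difference of 0.232 percentage points was not significant (exact permutation test, two-sided, p = 0.706, smallest possible p 0.00794). The direction turned to −0.171 percentage points without DNP1 and to −0.0454 without HuD5. With 60647 to 259834 productive reads per animal, the 95% Wilson intervals of these shares, 95.8% to 96.0% in DNP1 for example, were narrow and cover counting error only.

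Reads without a call had short CDR3s. The mean CDR3 length was 7.30 ± 0.634 residues for rearrangements without a call and 12.2 ± 0.286 for those with one (n = 10 animals), and 61.9% ± 8.83 against 6.41% ± 1.42 had 7 residues or less. A CDR3 of 7 residues or less leaves few core residues, so cores without and with a call cover unlike stretches of the loop. Aspartate made up 12.3% ± 2.16 of the core residues without a call against 6.70% ± 0.405 with one, and histidine 7.65% ± 2.72 against 3.93% ± 0.327. Threonine stood at 2.14% ± 0.658 and 5.42% ± 0.404, and tyrosine at 20.4% ± 2.47 and 19.9% ± 0.908. Glycine was at 10.4% ± 2.92 against 15.03% ± 0.626, and DNP2 went the other way, with 17.3% without and 15.3% with a call. IGHJ2 was in 57.0% ± 5.09 and IGHJ3 in 16.5% ± 2.801 of the rearrangements without a call, where the called ones had 51.7% ± 2.62 and 23.5% ± 1.99. A call needs bases between the V and J segments, so these values describe the reads left out and were not tested.

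The usage of the IGHD genes was uneven in all 10 animals. IGHD1, a subgroup of 12 genes, made up 73.2% ± 3.47 of the D-called reads (n = 10), the 6 IGHD4 genes 13.8% ± 3.48, the 8 IGHD3 genes 6.66% ± 1.05, IGHD5-1, the only gene of its subgroup, 4.44% ± 1.40, and the 6 IGHD2 genes 1.87% ± 0.928. In rearrangements, where every sequence counts once, the IGHD1 share was 74.9% ± 1.55 and ranged from 71.8% to 76.7%. The 12 leading genes had 82.4% of the D-called reads, and 13 genes had a mean share under 1%.

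IGHD1-11 was the most used gene, with 12.4% ± 3.84 of the D-called reads. Its shares in DNP1 to DNP5 were 6.37%, 20.6%, 10.2%, 13.1% and 14.8%, and 12.01%, 12.5%, 14.5%, 8.73% and 11.3% in HuD1 to HuD5. The highest and the lowest animal were both DNP animals, and all HuD values lay between them. IGHD1-12 followed with 11.3% ± 3.16, with 5.82%, 14.7%, 15.6%, 10.7% and 8.05% in DNP1 to DNP5 against 10.6%, 14.7%, 10.1%, 9.82% and 13.3% in HuD1 to HuD5. Here too the HuD values lay within the range of the DNP animals.

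The order of the next genes was IGHD1-2 (9.40% ± 2.53), IGHD1-1 (7.95% ± 2.38), IGHD4-3 (7.86% ± 3.04), IGHD1-4 (6.75% ± 2.10), IGHD1-7 (5.49% ± 2.48), IGHD1-9 (5.31% ± 2.49), IGHD1-6 (5.14% ± 2.11), IGHD5-1 (4.44% ± 1.40), IGHD1-3 (3.17% ± 1.13) and IGHD1-10 (3.11% ± 1.22). Neighbours in this order differed by less than the larger of their SDs. IGHD4-3, the only IGHD4 gene among the 12, was at 15.8% in DNP3 and between 4.21% and 8.39% in the other 9 animals. Without its most abundant CDR3, its share in DNP3 was 11.96%. At the other end, IGHD2-6 had 481 reads in all, and its share was between 0.0135% and 0.0919%.

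**Figure D1:**
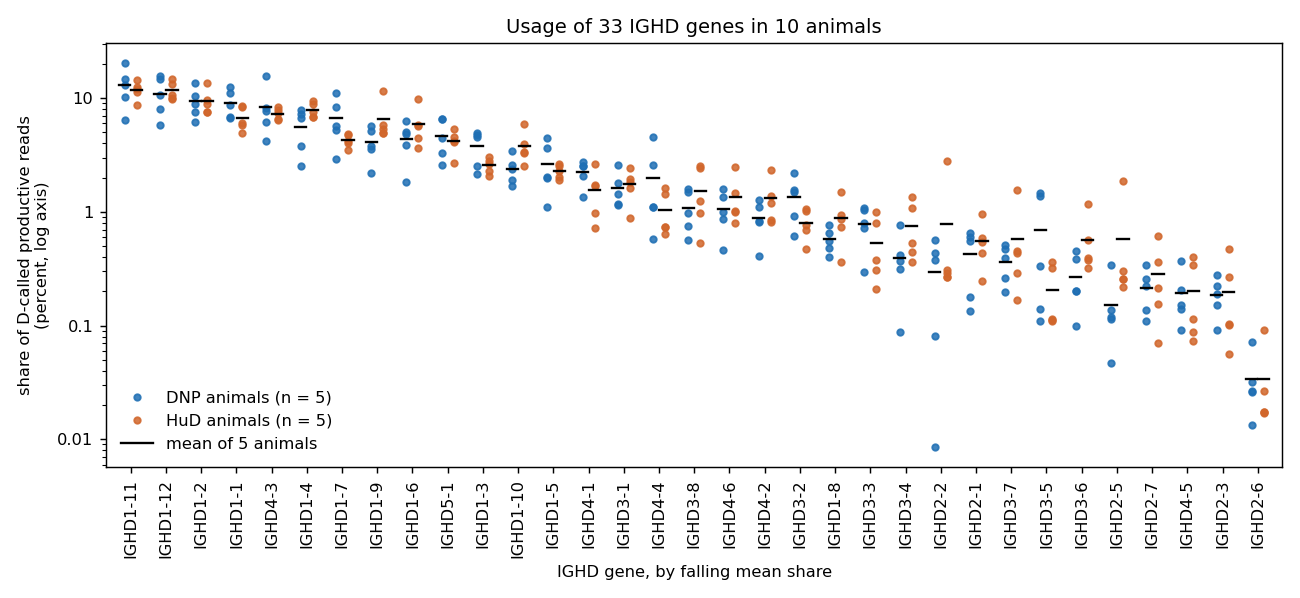
Share of D-called productive reads (percent, log axis) of the 33 IGHD genes, ordered by their mean, with 1 point per animal (5 DNP, 5 HuD) and bars for the mean of each group. The 12 leading genes hold 82.4% of the reads, the animals of both antigens overlap for all 33 genes, and the points spread more widely for the rare genes at the right.

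For the 12 leading genes the highest share of an animal was 2.22 to 5.40 times the lowest when reads were counted, and 1.42 to 3.47 times when each rearrangement counted once. For IGHD1-9 the ratio was 5.25 in reads and 1.42 in rearrangements, and for IGHD1-6, whose share reached 9.92% in HuD1, it was 5.40 and 1.69. IGHD1-3 went the other way, with 2.36 in reads and 3.47 in rearrangements. Reads per rearrangement were compared between the genes. Of the 29 genes with at least 20 rearrangements in every animal, 0 (0%) passed the threshold for a difference from all other IGHD genes within the same animal (exact sign-flip permutation test, two-sided, Benjamini-Hochberg threshold 0.05), and 6 had an unadjusted p under 0.05. The lowest adjusted p was 0.113, for IGHD1-8, which was lower in 9 of 10 animals by 0.53 on average on the log2 scale.

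Whether the antigens differ in IGHD usage was tested on the read counts with the quasi-likelihood test of edgeR. Of 33 genes, 0 (0%) passed an adjusted p of 0.05 and 5 had an unadjusted p under 0.05. DESeq2 also called 0 genes with 5 under an unadjusted 0.05, and limma called 0 with 2. For 0 of the 33 genes (0%) did the shares of the antigens not overlap.

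In the 5 genes of lowest p, 1 or 2 animals stood apart. IGHD2-5 had a log2 difference (HuD minus DNP) of 1.96 ± 0.69 (SE), with an adjusted p of 0.0980 in edgeR. Its share was 0.0471%, 0.119%, 0.114%, 0.137% and 0.340% in DNP1 to DNP5 and 0.258%, 0.219%, 0.259%, 0.304% and 1.86% in HuD1 to HuD5. The HuD5 value stood far above the other 9, and was 0.666% without TRGGYFRY, which had 2466 reads there. IGHD2-2 differed by 1.68 ± 0.62 (adjusted p = 0.0980, edgeR), with 0.567%, 0.375%, 0.00849%, 0.0810% and 0.437% in DNP1 to DNP5, and 0.268%, 0.270%, 0.309%, 2.79% and 0.288% in HuD1 to HuD5. Of the 4976 IGHD2-2 reads of HuD4, 1908 carried ARAGYLRDWYFDF, and without them its share was 1.74%. Without HuD4 the log2 difference of IGHD2-2 was −0.09 (adjusted p = 0.902, edgeR).

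IGHD3-5 was lower in the HuD animals, by −1.72 ± 0.65 on the log2 scale (adjusted p = 0.0980, edgeR). It had 1.47% in DNP1 and 1.39% in DNP3, and between 0.110% and 0.365% in the other 8 animals. Without AWPST the DNP1 value was 0.191%. IGHD1-9 was at 5.16%, 3.602%, 2.22%, 5.66% and 3.77% in DNP1 to DNP5 and at 4.94%, 5.35%, 4.94%, 11.7% and 5.83% in HuD1 to HuD5, a log2 difference of 0.79 ± 0.33 (adjusted p = 0.133). IGHD1-10 differed by 0.75 ± 0.34 (adjusted p = 0.181), with 5.96% in HuD4 and 1.69% to 3.92% in the others. Unlike IGHD2-2, these genes and IGHD2-5 kept their direction in all alternatives, including those with 1 animal left out. The log2 difference was 0.739 to 3.25 for IGHD2-5 and −2.59 to −0.646 for IGHD3-5. It was 0.153 to 2.04 for IGHD1-9 and 0.142 to 0.954 for IGHD1-10.

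With distinct rearrangements in place of reads, edgeR called 1 gene, IGHD1-3, which was named after its values were seen. Its shares of the rearrangements in DNP1 to DNP5 were 5.54%, 1.98%, 4.23%, 4.96% and 5.62%, and 2.33%, 2.51%, 1.62%, 2.60% and 2.11% in HuD1 to HuD5. The other 4 DNP animals lay above all HuD animals, and DNP2 lay among the HuD animals. The log2 difference was −1.06 ± 0.17 (SE), with an adjusted p of 9.05e-06 in edgeR. Because edgeR estimates the spread partly over all genes, this SE and p do not measure the spread of IGHD1-3 alone. Split by IGHJ gene, its rearrangements did not pass, with an adjusted p of 0.0537 for IGHJ1 and IGHJ4, 0.0894 for IGHJ2 and 0.113 for IGHJ3 (edgeR). In reads the shares were 3.78% ± 1.33 and 2.56% ± 0.384 for DNP and HuD (n = 5 each), and the gene did not pass the threshold. When HuD2 was left out, IGHD2-2, IGHD2-5 and IGHD3-5 passed it, and when HuD3 was left out IGHD2-2 and IGHD2-5 did.

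The pairing of IGHD and IGHJ genes was compared within each animal. All D-called rearrangements used IGHJ2 in 51.7% ± 2.62, IGHJ3 in 23.5% ± 1.99, IGHJ4 in 14.8% ± 3.21 and IGHJ1 in 9.95% ± 0.874 (n = 10). For each of the 29 genes, the IGHJ shares were set against those of all other IGHD genes of the same animal. Of the 116 pairs, 12 (10.3%) passed the threshold, 5 higher (4.31%) and 7 lower (6.03%), all with an adjusted p of 0.0378 (exact sign-flip permutation test, two-sided). Of these pairs, 5 had an unadjusted p of 0.00195, the smallest that 10 animals allow, and 7 had the next one, 0.00391.

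IGHD5-1 had 3 of the 12 calls. Its IGHJ1 share was 8.72% to 20.4% over the 10 animals, with a median of 16.004%, and on average 15.1% ± 3.63 against 9.70% ± 1.01 for the other genes, higher in 9 of 10 animals. Its IGHJ2 share was 48.0% to 66.8%, with a median of 58.5%, and exceeded that of the other genes in 10 of 10 animals by 7.05 ± 4.05 percentage points. The IGHJ4 share was 5.55% to 10.7%, with a median of 7.14%, and was lower in 10 of 10 animals, with 7.51% ± 1.70 against 15.2% ± 3.39. In rearrangements with a CDR3 of at least 10 residues, the IGHJ2 difference of IGHD5-1 was −0.920 percentage points and no longer passed the threshold, while the IGHJ1 difference was 11.8 percentage points (adjusted p = 0.0488, exact sign-flip permutation test).

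IGHD4-1 and IGHD1-9 also used more IGHJ2. For IGHD4-1 it was in 60.8% ± 6.68 of the rearrangements against 51.6% ± 2.58 for the others, higher in 10 of 10 animals, and its IGHJ4 share was lower by 3.95 ± 2.91 percentage points. For IGHD1-9, IGHJ2 was in 59.9% ± 4.75 against 51.2% ± 2.65, higher in 9 of 10 animals with DNP3 as the exception, and IGHJ3 in 18.7% ± 4.08 against 23.8% ± 1.96. IGHD1-12 was the only gene whose IGHJ4 share passed the threshold as higher, 20.4% ± 7.23 against 14.1% ± 2.79, in 10 of 10 animals. The lower pairs also included IGHD2-5 and IGHD3-5 with IGHJ3, by −8.66 ± 5.20 and −7.94 ± 6.27 percentage points, IGHD1-4 with IGHJ2, by −5.41 ± 5.34, and IGHD4-3 with IGHJ1, by −3.13 ± 2.09.

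With other settings there were 0 calls (0%) when reads replaced rearrangements, when rearrangements needed at least 2 reads, or when each IGHV gene, IGHJ gene and CDR3 was given its most frequent IGHD gene, where the lowest adjusted p was 0.0755, 0.0820 and 0.0503. Of the 12 pairs, 12, 10 and 12 could be tested in these settings, and their directions did not change there. Leaving out any 1 animal other than HuD5 also ended the calls, and leaving out HuD5 left 10. With 9 animals the smallest possible p is 0.00391, and after adjustment over all pairs a lone pair at this value cannot pass. The loss of calls therefore cannot show whether a pairing rests on 1 animal.

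**Figure D2:**
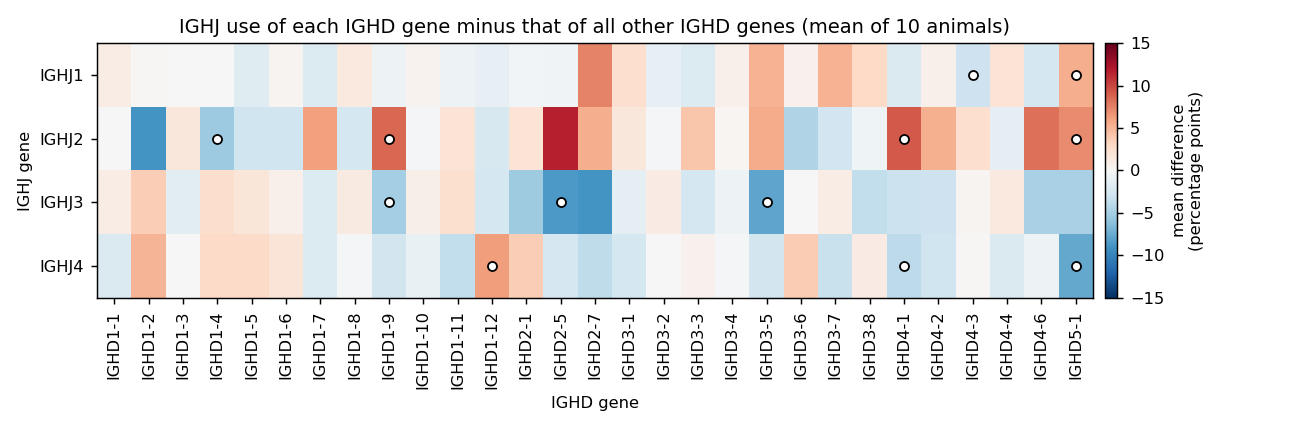
Mean difference over 10 animals, in percentage points of rearrangements, between the IGHJ use of each of 29 IGHD genes and that of all other IGHD genes of the same animal. Circles mark the 12 of 116 pairs with an adjusted p under 0.05, of which IGHD5-1 holds 3.

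Between the antigens, 0 of 131 D-J pairs (0%) with at least 100 reads passed the threshold in edgeR, and 22 had an unadjusted p under 0.05. DESeq2 called 8 pairs and limma 1. The lowest adjusted p, 0.0614, was shared by IGHJ1 pairs of IGHD2-7, IGHD2-1 and IGHD2-5. IGHD2-7 with IGHJ1 had 2, 3, 3, 9 and 10 reads in DNP1 to DNP5 and 108, 22, 388, 18 and 1054 in HuD1 to HuD5, a log2 difference of 5.03 ± 1.21 (SE). IGHD2-1 with IGHJ1 had 2 to 15 reads in the DNP and 48 to 132 in the HuD animals, a log2 difference of 2.68 ± 0.68. IGHD2-5 with IGHJ1 had 0 to 14 reads in the DNP and 3 to 598 in the HuD animals. As a share of the D-called reads, IGHD2-1 with IGHJ1 was at most 0.0107% in the DNP and at least 0.0269% in the HuD animals. IGHD2-7 with IGHJ1 overlapped, with 0.0111% in DNP5 and 0.01002% in HuD2. These pairs were looked at because of their low p, and how many of the 131 pairs did not overlap was not counted. The lack of overlap of IGHD2-1 with IGHJ1 is therefore a description only. VRQGYLRDWYFDF with IGHV5-29 and IGHJ1 as its leading genes had 1868 reads in HuD5, of which 907 were called IGHD2-7 and 510 IGHD2-5.

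The length of the CDR3 differed between most of the IGHD genes. Of 29 genes, 26 (89.7%) differed from all other IGHD genes of the same animal, 4 higher (13.8%) and 22 lower (75.9%) (exact sign-flip permutation test, two-sided). As a call rests on the bases of the CDR3, length is not independent of it. The 4 genes with longer CDR3s were all IGHD1 genes. IGHD1-12 had a mean of 14.1 ± 0.554 residues against 11.9 ± 0.226 for the others, IGHD1-6 13.8 ± 0.347, IGHD1-2 13.5 ± 0.219 and IGHD1-9 13.4 ± 0.286, and each was longer in 10 of 10 animals (adjusted p = 0.00270). The shortest were IGHD2-1 with 9.49 ± 0.642, IGHD4-2 with 9.76 ± 0.411, IGHD4-6 with 9.85 ± 0.327, IGHD4-1 with 9.87 ± 0.248 and IGHD3-1 with 9.89 ± 0.339 residues, again in 10 of 10 animals each.

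Outside IGHD1, the 17 genes tested were all shorter, which were 3 IGHD2, 8 IGHD3 and 5 IGHD4 genes and IGHD5-1. IGHD5-1 had 10.2 ± 0.1599 residues, the smallest SD over animals of any gene. IGHD1-1, IGHD1-3 and IGHD1-8 did not pass the threshold, and IGHD1-3 was longer than the others in 3 and shorter in 7 animals. Among the genes that passed, IGHD1-5 and IGHD3-6 were shorter in 8 of 10 animals, and IGHD1-4, IGHD1-11 and IGHD3-3 in 9. In rearrangements with IGHJ2 alone, 20 of 24 genes passed, 4 higher and 16 lower.

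**Figure D3:**
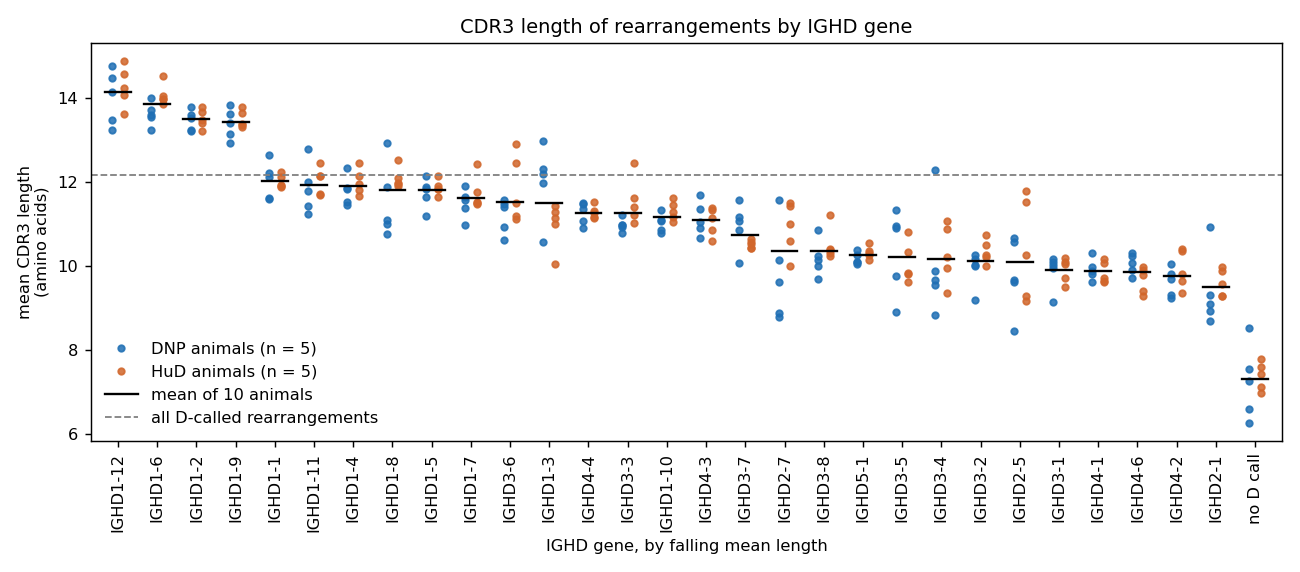
Mean CDR3 length (amino acids) of the rearrangements of 29 IGHD genes and of rearrangements without a D call, with 1 point per animal, a bar for the mean of 10 animals and a dashed line for the mean of all D-called rearrangements. IGHD1-12, IGHD1-6, IGHD1-2 and IGHD1-9 lie above the line in all 10 animals. The mean of the rearrangements without a call, 7.30 residues, lies below the mean of every gene shown, while single animals overlap.

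The lengths were also compared between the antigens. Of 29 genes, 0 (0%) passed in limma, and 4 had an unadjusted p under 0.05. IGHD1-3 had the lowest p, with 12.003 ± 0.886 residues in the DNP and 10.98 ± 0.542 in the HuD animals (n = 5 each, adjusted p = 0.339, limma). Without DNP2, whose IGHD1-3 mean was 10.6, 2 genes passed, IGHD1-3 and IGHD2-7.

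The amino acids of the CDR3 core differed between the IGHD genes. For 29 genes, 20 residues, net charge and hydropathy, 359 of 638 comparisons (56.3%) passed the threshold, 155 higher (24.3%) and 204 lower (32.0%). The core is partly encoded by the IGHD segment from whose bases the call was made, so these values describe the calls. Added bases and residues of the IGHJ gene can also lie in the core, and the values do not separate them from the IGHD segment. IGHD1-10 had the largest single difference. Asparagine, which YNNY holds at 2 positions, made up 20.01% ± 1.60 of its core residues and 4.07% ± 0.259 in the other genes. IGHD1-11 was rich in glycine, as in YGGY, with 25.1% ± 1.94 against 13.6% ± 0.580. IGHD1-2 had 16.7% ± 1.32 serine against 6.49% ± 0.755 and 7.48% ± 1.05 glycine against 16.02% ± 0.675. The differences of these 3 genes had the same sign in 10 of 10 animals (adjusted p = 0.00608, exact sign-flip permutation test).

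Tyrosine was the most common residue of the cores, with 19.9% ± 0.908. It was higher in 3 IGHD1 genes, IGHD1-12, IGHD1-9 and IGHD1-6, and lower in 18 of 29 genes, which were all 8 IGHD3 genes, the 5 IGHD4 genes tested, IGHD5-1 and 4 IGHD1 genes. IGHD1 thus had genes on both sides, and its lower ones were IGHD1-4 with 14.9% ± 1.55, IGHD1-8, IGHD1-11 and IGHD1-5. IGHD1-12 had 28.9% ± 2.05 tyrosine, and IGHD5-1 had 8.77% ± 0.979 against 20.3% ± 0.884 in the other genes. IGHD4-4, IGHD3-2 and IGHD3-7 followed with 9.37% ± 2.43, 10.9% ± 2.29 and 11.4% ± 1.85. IGHD5-1 cores held more tryptophan, 10.8% ± 1.08 against 4.198% ± 0.397. Its string NWEL holds this residue but was in only 1.78% ± 0.536 of its rearrangements.

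Proline was higher in 9 genes, which were all 8 IGHD3 genes and IGHD1-4, the gene of LPGY and YPGI. It was highest in IGHD3-1 with 16.2% ± 2.27 and IGHD3-4 with 16.1% ± 2.54, against 4.70% ± 0.518 and 4.80% ± 0.510 in the others, and the lowest mean of an IGHD3 gene was 10.002%, in IGHD3-6. Glycine was lower in all 8 IGHD3 genes and higher in 3 of the 5 IGHD4 genes tested. The net charge of the core, counted as lysine and arginine minus aspartate and glutamate, was lower in 3 genes, IGHD1-12, IGHD1-1 and IGHD1-6, and higher in 14. IGHD1-12 stood at −0.869 ± 0.169 charges per core against −0.200 ± 0.0373, and 11.6% ± 1.24 of its residues were aspartate. On the Kyte-Doolittle scale, where positive values are hydrophobic, IGHD1-10 was the most hydrophilic gene with −1.43 ± 0.134 and IGHD4-6 the least with −0.319 ± 0.280.

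**Figure D4:**
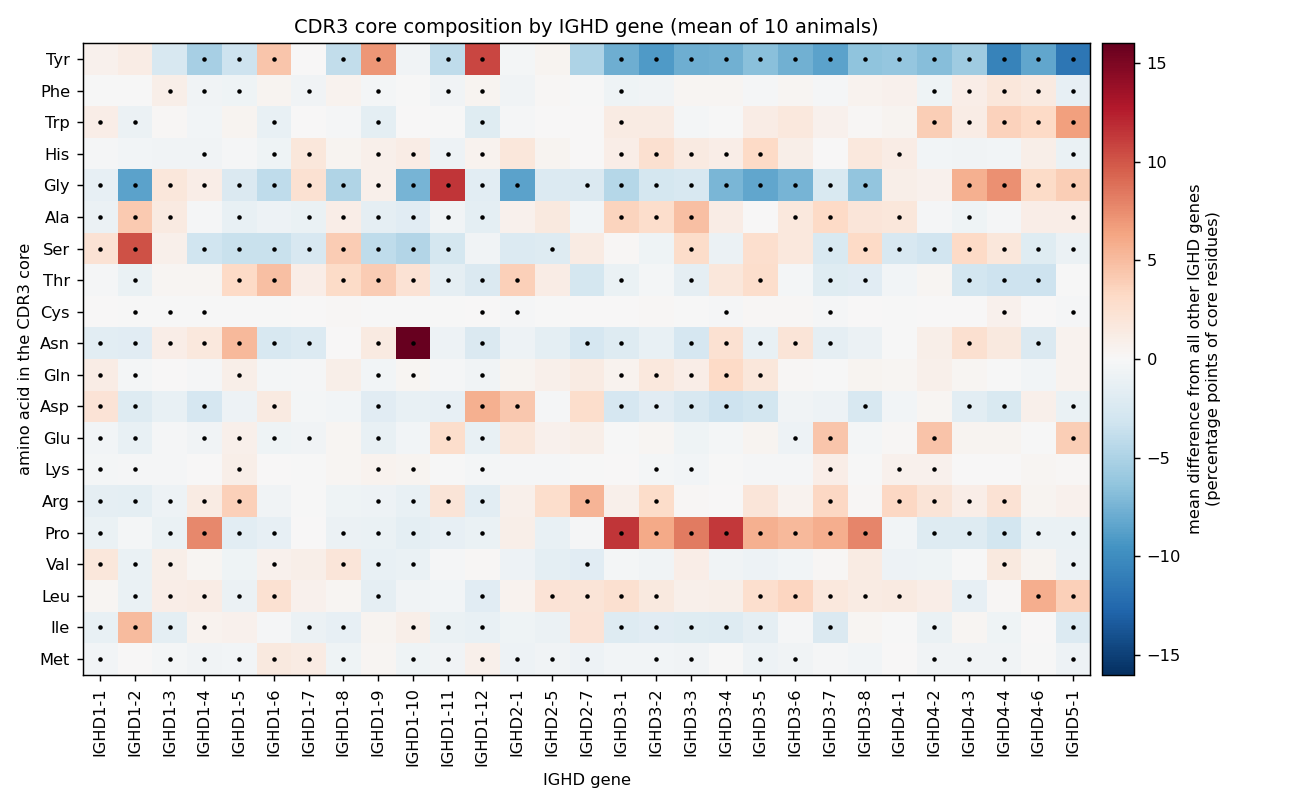
Mean difference over 10 animals, in percentage points of CDR3 core residues, between each of 29 IGHD genes and all other IGHD genes of the same animal. Dots mark an adjusted p under 0.05. The IGHD3 genes form a block of higher proline and lower tyrosine, and asparagine in IGHD1-10 is the largest difference at 15.9 percentage points.

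How firmly a read is tied to its IGHD gene varied with the length of the CDR3. Among reads of an animal with the same IGHV gene, IGHJ gene and CDR3, in groups of at least 10 reads, 97.7% ± 0.632 (n = 10 animals) carried the leading call of their group. This share was 95.4% ± 3.25 for a CDR3 of 7 residues or less and 99.6% ± 0.282 for 16 residues or more. By gene it was lowest for IGHD2-6, with 84.9% ± 23.4 in the 6 animals that had such groups, and highest for IGHD1-9 with 99.1% ± 0.893.

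In 86.4% of these groups, as a mean over the animals, all reads carried 1 call. The calls were also compared between animals, where combinations of any number of reads were used. Of 4383 combinations of IGHV gene, IGHJ gene and CDR3 that were found in at least 2 animals, 63.8% had the same leading call, or no call, in all of them. The share was 54% for CDR3s of 7 residues or less, 48.6% for 8 to 9, 72.0% for 10 to 11, 81.7% for 12 to 13, 93.0% for 14 to 15 and 100% of 71 for 16 residues or more. Some combinations had very few reads in an animal. ARWPGYNPPYAMDA, mostly with IGHV3-3 and IGHJ4, had 2991 reads in DNP4 and 2 in DNP3, all called IGHD1-4. Whether such reads were carried over between libraries was not tested. Several of the abundant sequences shown above were among those that differed. TRGGYFRY, with IGHV5-31 and IGHJ2 in most of its reads, had 4473 reads in HuD3, of which 2302 were called IGHD1-12 and 1809 IGHD1-1, whereas 2466 of its 2545 reads in HuD5 were called IGHD2-5 and all 118 in HuD4 IGHD4-4. ARWTRYFDY, with IGHV3-1 and IGHJ2, was called IGHD1-7 in 4230 of 4264 reads in DNP1 and IGHD1-4 in 531 of 559 reads in DNP5. ARRHYGYTDYFDY was called IGHD1-9 in 5737 of 5742 reads in HuD4, and IGHD1-7 in 991 of 1283 reads in HuD5, the pair of genes that share the string YYGY. Identical residues can be encoded by different bases, which were not compared here.

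**Figure D5:**
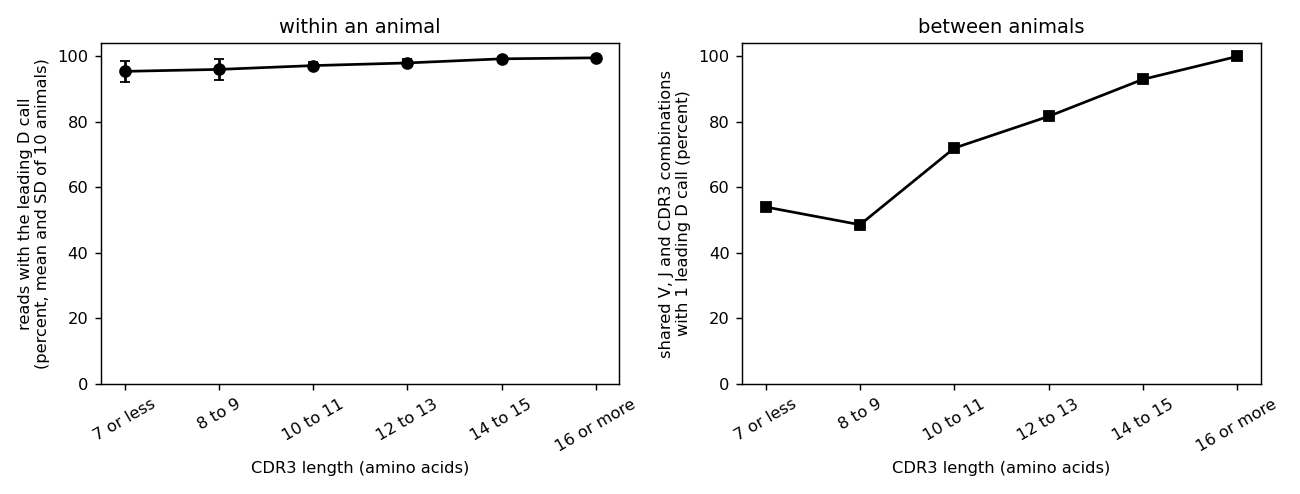
Left, the percent of reads with the leading IGHD call among reads of an animal with the same IGHV gene, IGHJ gene and CDR3 (mean and SD of 10 animals), and right, the percent of such combinations found in at least 2 animals that had 1 leading call in all of them, both by CDR3 length. The left values go from 95.4% to 99.6%, and the right ones are lowest at 8 to 9 residues with 48.6% and reach 100% at 16 or more.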

How the data were processed

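Heavy chain variable domains of 10 rats were sequenced on a MiSeq, 1 library for each rat in a shared run. The authors joined mates with PEAR and collapsed them in MIGEC by molecular tag, accepting tags seen 1 time, and since the tag proved too short, bases of the CDR3 served as a further tag. Genes were assigned with High-VQuest. Its version is not given in the sources used here. The deposited counts give the number of sequenced copies of each collapsed sequence. Each collapsed sequence counted as 1 read, whatever its copies, which entered an alternative. The called gene, the productive label and the CDR3 were taken as deposited, and 0 productive reads named several IGHD genes. As 81.7% to 87.8% of the productive reads had 1 copy, collapsing could not correct sequencing errors in most of them.

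Productive reads per IGHD gene or D-J pair (at least 100 reads over the 10 animals) were compared with edgeR 4.0.16 (quasi-likelihood test, TMM) in R 4.3.3, HuD against DNP, with DESeq2 1.42.0 and limma 3.58.1, on log2(RPM + 10), as alternatives. Mean CDR3 lengths were compared with limma. Genes were compared within animals by exact sign-flip permutation (Python 3.11.15, numpy 2.4.6), for genes with at least 20 rearrangements in every animal. This left out IGHD2-2, IGHD2-3, IGHD2-6 and IGHD4-5. All adjusted p-values are by Benjamini-Hochberg over all tests of a comparison, with a threshold of 0.05. The scripts were tested on simulated data. For 2 reads the CDR3 held a sign that is no residue, and they were left out of the rearrangements.

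The genes named are the 12 with the highest mean share, those past the threshold in usage or without overlap, and the 5 largest differences each way per within-animal test. The genes with an unadjusted p under 0.05 in usage, and the further pairs and residues that are named, were chosen after their values were seen. The members and lists were chosen with earlier results of these data known. Alternatives with copies, rearrangements, other filters and left-out animals were planned, and 3 others were added after seeing the data. At most 0.508% of the reads of the smaller of 2 libraries shared tag and CDR3 with the other, which was DNP3 with DNP4. The largest number was 405, in DNP1 and DNP4, and between antigens it was 37, in DNP2 and HuD2. The study reported finding no reads with the same sequence and molecular tag in different samples. Only the tag and the CDR3 were compared here. P-values measure the spread between animals, which edgeR, DESeq2 and limma estimate partly over all features. Germline IGHD sequences were not used here.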

Additional observations from a re-analysis of the deposited data

Results flagged for a closer look

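In 6 of 68 groups of 5 animals (33 genes and the D call rate, in each antigen), 1 animal stood far from the other 4. The cutoff used would flag about 1 in 20 groups of normally distributed values by chance. Shares of reads are skewed and are parts of 1 whole, so this rate does not hold for them and the number flagged cannot be set against it. All 6 were high values of a HuD animal. The share of the D-called reads was 11.7% for IGHD1-9 in HuD4 against 4.94% to 5.83% in the other HuD animals, and 2.79% for IGHD2-2 in HuD4 against 0.268% to 0.309%. IGHD2-5 had 1.86% in HuD5 against 0.219% to 0.304%, and IGHD2-6 had 0.0919% in HuD1 against 0.0171% to 0.0263%. IGHD3-6 had 1.17% in HuD3 against 0.321% to 0.567%, and IGHD3-7 had 1.57% in HuD2 against 0.168% to 0.453%. In each of the 6, a single CDR3 held between 23.6% and 85.8% of the reads of the gene in that animal. It was 28.8% for IGHD1-9, 38.3% for IGHD2-2, 64.6% for IGHD2-5, 85.8% for IGHD2-6, 31.5% for IGHD3-6 and 23.6% for IGHD3-7. Over all animals, the mean of this share was 10.3% ± 7.31, 45.1% ± 24.0, 35.3% ± 13.8, 54.6% ± 23.0, 28.6% ± 18.5 and 23.6% ± 11.7, in the same order. For IGHD2-2 and IGHD3-7 the flagged animal was thus not above the mean of its gene.

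For IGHD2-1 with IGHJ1, all 5 DNP animals had a lower and all 5 HuD animals a higher share than the other IGHD genes of the same animal. The mean difference was −3.59 percentage points in the DNP and 2.86 in the HuD animals, which is 6.45 apart. This difference was not tested. It was the only one flagged among 116 pairs, 29 lengths, 638 core comparisons and 29 comparisons of reads per rearrangement. The same pair is shown above as without overlap between the antigens, in the same reads. The number of IGHD2-1 rearrangements went down to 28 in an animal.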

How the results depend on the processing

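The D call rate kept its direction except without DNP1 (−0.171 percentage points) and HuD5 (−0.0454), and leaving out 1 animal gave −0.171 to 0.469. For IGHD usage, 0 genes were called in reads and 1 in distinct rearrangements, and 0 to 3 when 1 animal was left out. The log2 difference of IGHD2-2 turned to −0.0902 without HuD4, in a range of −0.0902 to 2.00 over left-out animals. For D-J pairs between antigens, 0 were called, 1 with sequenced copies, 1 without TMM, 1 in limma, 8 in DESeq2, 1 with a CDR3 of at least 10 residues and 0 to 2 when 1 animal was left out. For pairing within animals, 12 calls became 0 with reads, 0 with at least 2 reads per rearrangement, 0 with 1 IGHD gene per IGHV, IGHJ and CDR3, 4 with a CDR3 of at least 10 residues (where IGHD5-1 with IGHJ2 turned to −0.920 percentage points) and 0 to 10 when 1 animal was left out. The cause was not tested. For length, 26 calls became 16 of 19 genes with at least 100 rearrangements and 16 of 21 with at least 2 reads per rearrangement, where fewer genes were tested, and 25 to 29 when 1 animal was left out. For composition, 359 calls became 190 with reads, 199 of 462 comparisons with at least 2 reads per rearrangement, and 332 to 368 when 1 animal was left out. For length between antigens, 0 to 2 genes were called when 1 animal was left out, and reads per rearrangement gave 0 throughout.

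A number shared by a DNP and a HuD rat names separate rats, and the correlation of their deviations in usage was between −0.158 and 0.30. With the number as a replicate block, the D call rate gave a difference of 0.232 (exact sign-flip p = 0.688), and 0 genes, 0 D-J pairs and 0 lengths were called, so it changed no call. The alternative with only reads that name 1 IGHD gene gives no other value, since no read names several.

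Depth limits the rare genes. IGHD2-2 had 5 reads in DNP3, and 4 genes had under 20 rearrangements in some animal.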
